A study of Mus musculus with 12 samples.

Results

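The mitochondrial ribosomal protein genes were examined in chromatin immunoprecipitation sequencing (ChIP-seq) peak lists of mouse liver. They were taken as the protein-coding genes of the GENCODE vM21 annotation (mm10 build) whose symbols begin with Mrpl or Mrps and a digit, which gave 78 of 21853 protein-coding genes outside the mitochondrial genome. By symbol, 49 belong to the large and 29 to the small ribosomal subunit. Mrps18a and Mrps30 are placed in the large subunit in later structures of the ribosome, and Mrps36 is also known as a component of the 2-oxoglutarate dehydrogenase complex, but the grouping by symbol was kept.

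The mitochondrial ribosome translates the few proteins encoded by mitochondrial DNA, all of them subunits of the respiratory chain complexes and ATP synthase. Its RNAs come from mitochondrial DNA, while every one of its proteins is encoded in the nucleus, made in the cytosol and imported. LSD1 is a histone demethylase that removes methyl groups from mono- and dimethylated lysine 4 of histone H3, and dimethylated lysine 4 (H3K4me2) marks active promoters and enhancers.

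The LSD1 list came from liver of wild type C57BL/6 mice. The H3K4me2 lists came from livers of C57BL/6 mice with floxed Lsd1 alleles that were given an adeno-associated virus encoding GFP (GFP control) or Cre (LSD1-LKO) in adulthood. In both, the virus acted from the TBG promoter, which is active in hepatocytes. The other cells of whole liver therefore kept LSD1 and were in the libraries. The paper's methods describe LSD1-LKO and GFP control mice as fed a high-fat diet between virus injection and tissue collection. How the animals behind these lists were fed, wild type ones included, is not given separately. In chow-fed LSD1-LKO liver the paper saw no global loss of mitochondrial gene expression. Each list rests on 2 ChIP libraries and 2 control libraries, 12 samples in all. It holds 14584 peaks for LSD1, 43891 for H3K4me2 in control and 50675 for H3K4me2 in LSD1-LKO, and every entry pairs a peak of a first-listed library with an overlapping peak of a second-listed library. There are no reads, the depth is unknown, and a peak found in only 1 of the 2 libraries is not listed. Because a peak had to be in both libraries of its group to be listed, the libraries of a group give no independent replicate values, and no test was run between groups. In bulk liver, fewer cells with a mark and less of the mark per cell cannot be told apart.

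A promoter was the region within 1 kb of any transcription start of a gene, and a promoter peak was a listed peak that overlapped it by at least 1 bp. The sequences of 7 promoters are shown here because they carry the results that follow. Those of Mrpl40, Mrpl48, Mrps30 and Mrps18c have the highest-ranking LSD1 peaks among these genes, that of Mrps22 has a low-ranking one and belongs to a gene with mapped ChIP regions in this work, and those of Mrpl14 and Mrps18a had H3K4me2 peaks in the control list only. Each run is the RefSeq promoter (GRCm38.p6, the assembly of mm10) from 250 bases before to 50 bases after a start, 5′ to 3′ in the direction of the gene, with capitals marking the letters CCGGAAGT (a site of ETS factors such as GABP) or AAGATGGCG (a YY1 site), read on either strand, so that the ETS letters of the other strand appear as ACTTCCGG.
Mrpl40 (chr16:18876588-18876887, minus strand): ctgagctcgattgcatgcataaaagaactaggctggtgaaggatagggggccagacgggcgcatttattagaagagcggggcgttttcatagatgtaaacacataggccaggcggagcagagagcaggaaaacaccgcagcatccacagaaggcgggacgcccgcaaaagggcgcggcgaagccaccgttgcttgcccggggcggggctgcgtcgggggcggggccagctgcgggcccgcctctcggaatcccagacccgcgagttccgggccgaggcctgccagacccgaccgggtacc
Mrpl48 (chr7:100583081-100583380, minus strand): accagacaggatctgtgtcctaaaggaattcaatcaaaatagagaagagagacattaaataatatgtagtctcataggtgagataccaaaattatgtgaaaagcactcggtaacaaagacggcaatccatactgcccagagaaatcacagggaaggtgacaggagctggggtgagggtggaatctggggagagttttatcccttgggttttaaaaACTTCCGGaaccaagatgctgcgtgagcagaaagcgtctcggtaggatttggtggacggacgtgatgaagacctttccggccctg
Mrps30 (chr13:118387203-118387502, minus strand): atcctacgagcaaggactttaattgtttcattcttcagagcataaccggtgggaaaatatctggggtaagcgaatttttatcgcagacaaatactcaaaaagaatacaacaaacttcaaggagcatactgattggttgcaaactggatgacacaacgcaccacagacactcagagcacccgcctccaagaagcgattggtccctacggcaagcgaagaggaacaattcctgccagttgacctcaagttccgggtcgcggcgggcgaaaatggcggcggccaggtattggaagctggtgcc
Mrps18c (chr5:100798509-100798808, plus strand): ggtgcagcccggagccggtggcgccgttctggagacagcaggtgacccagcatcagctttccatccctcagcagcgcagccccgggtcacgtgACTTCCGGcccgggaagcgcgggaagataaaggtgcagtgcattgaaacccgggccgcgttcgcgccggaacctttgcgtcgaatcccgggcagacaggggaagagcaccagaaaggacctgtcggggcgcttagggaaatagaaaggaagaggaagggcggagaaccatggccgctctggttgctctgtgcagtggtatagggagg
Mrps22 (chr9:98601630-98601929, minus strand): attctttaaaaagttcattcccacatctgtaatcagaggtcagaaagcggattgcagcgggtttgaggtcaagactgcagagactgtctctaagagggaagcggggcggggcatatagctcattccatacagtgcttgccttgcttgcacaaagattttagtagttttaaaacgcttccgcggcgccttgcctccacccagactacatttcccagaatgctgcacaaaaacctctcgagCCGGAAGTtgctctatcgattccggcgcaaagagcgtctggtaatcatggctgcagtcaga
Mrpl14 (chr17:45686099-45686398, plus strand): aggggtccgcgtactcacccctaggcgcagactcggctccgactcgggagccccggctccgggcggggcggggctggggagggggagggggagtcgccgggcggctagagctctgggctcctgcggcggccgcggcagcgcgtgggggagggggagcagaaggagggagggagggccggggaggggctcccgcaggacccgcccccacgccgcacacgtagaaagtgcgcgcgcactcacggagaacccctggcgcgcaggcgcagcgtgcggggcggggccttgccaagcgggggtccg
Mrps18a (chr17:46110754-46111053, plus strand): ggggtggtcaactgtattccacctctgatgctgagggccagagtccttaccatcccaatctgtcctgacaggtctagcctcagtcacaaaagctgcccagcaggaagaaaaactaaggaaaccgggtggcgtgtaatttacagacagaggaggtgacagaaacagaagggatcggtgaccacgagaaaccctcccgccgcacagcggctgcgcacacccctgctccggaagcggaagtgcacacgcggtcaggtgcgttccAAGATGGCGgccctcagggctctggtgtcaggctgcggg
The ETS letters stood on the strand opposite to the gene in Mrpl48 and Mrps18c, and on its own strand in Mrps22, where they began 11 bases before the start. The YY1 letters of Mrps18a began at base 12 counted from the start. Mrpl40, Mrps30 and Mrpl14 held none of the 4 motifs searched. The promoter shown for Mrpl48 is 1 of its 4 in the RefSeq table and is the one under its highest-ranking LSD1 peak.

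The table held 75 promoters of 69 of the 78 genes. Mrpl4, Mrpl13, Mrpl15, Mrpl19, Mrpl38, Mrpl54, Mrps28, Mrps34 and Mrps35 had no entry. The ETS letters were in 12 of the 75 promoters (16.0%), against 3.89% of all 32851 promoters of the table and 7.53% of 13545 promoters of genes with an H3K4me2 promoter peak. The letters GCATGCGC, which match the site of NRF1, an activator of nuclear genes for mitochondrial proteins, were in 8 (10.7%), against 2.71% and 4.95%. The YY1 letters were in 8 (10.7%), against 1.40% and 2.74%. AAGGTCA, a binding site of the estrogen-related receptors, was in 4 (5.33%), against 4.72% and 3.30%. These promoters were also richer in CpG than the table, with a median of 21 CpG and 58.7% G+C against 7 and 52.7%, but stood close to those of H3K4me2-marked genes, with medians of 20 and 60.7%. Genes with an LSD1 promoter peak held 29 of the promoters (23 genes, some with several entries), and the other 46 belonged to 46 genes. The entries of Mrpl2 and Mrps16 overlapped, while those of Mrpl48 lay apart. The Mrpl48 entry that begins at 100591365 lay under no LSD1 peak but is counted in the 29. The YY1 letters were in none of the 29 and in 8 of the 46, namely those of Mrpl35, Mrpl36, Mrpl37, Mrpl42, Mrps11, Mrps18a, Mrps24 and Mrps27. The ETS letters were in 5 and 7, the NRF1 letters in 1 and 7, and AAGGTCA in 1 and 3. The same split over all genes was not computed. A match describes these letters in a 300-base window and was not tested as a site.

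LSD1 occupied the promoters of 27 of the 78 mitochondrial ribosomal protein genes (34.6%). An LSD1 promoter peak was listed for 23.6% of all protein-coding genes and for 37.6% of the 13553 genes with an H3K4me2 promoter peak in either list, so the share among the mitochondrial ribosomal genes was above the one and close to the other. It was nearly equal in the subunits, with 17 of 49 large-subunit genes (34.7%) and 10 of 29 small-subunit genes (34.5%). With Mrps18a and Mrps30 counted as large and Mrps36 left out, a grouping chosen after seeing the data, it was 18 of 51 (35.3%) and 8 of 26 (30.8%). Cytosolic ribosomal protein genes had LSD1 at 29 of 84 promoters (34.5%). Factors that assemble the mitochondrial ribosome had it at 10 of 27 (37.0%), complex I subunits at 18 of 37 (48.6%), and the mitochondrial ribosomal proteins with other symbols (Dap3, Ptcd3, Chchd1, Gadd45gip1 and Aurkaip1) at 3 of 5.

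The 27 genes carried 30 LSD1 peaks, since Mrpl12, Mrpl48 and Mrps30 had 2 each. Peaks were ranked by averaging the −log10 p-values of both libraries, and the rank is given as a percentile of the LSD1 list. The fold enrichment is the ratio of ChIP to control library that the authors' peak caller gave. Across the 30 peaks the fold enrichment ran from 1.80 to 10.8 in the first-listed library and from 2.16 to 11.5 in the second-listed library. The highest-ranking peak per gene had a median percentile of 76.6, against 72.4 over all genes with an LSD1 promoter peak. For 7 genes it lay at or above percentile 90, and for 7 under percentile 50.

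Mrpl40 (ENSMUSG00000022706) had the strongest LSD1 signal among these genes, at percentile 100 of the list. Its peak lay on chromosome 16 from 18876490 to 18877816, 1327 bp wide, with fold enrichments of 10.8 and 11.5 and −log10 p-values of 25 and 27. Both libraries gave it more than any other peak of the mitochondrial ribosomal genes. The promoter is shared with Hira, a histone H3.3 chaperone, whose start lies 175 bp away on the other strand, and the center of the peak was 116 bp from the start of Hira and 291 bp from that of Mrpl40.

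Mrpl48 followed, with a peak on chromosome 7 from 100582847 to 100583387 at percentile 99.4 and fold enrichments of 4.98 and 10.4. It covered an internal start of the gene, under the sequence shown above, rather than the start that Mrpl48 shares with Rab6a, a small GTPase of Golgi traffic. The second LSD1 peak of Mrpl48, from 100607260 to 100607542, lay next to the shared start and ranked at percentile 50.9, with 2.07 and 3.92. The second-listed library was the higher one at both peaks.

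In Mrps30 the higher-ranking LSD1 peak (chromosome 13, 118386786 to 118387369) was separated by a short gap from the other (118387486 to 118387768), and both overlapped the same peak of the second-listed library. The former was centered in a coding exon, at percentile 98.5, with fold enrichments of 5.74 and 6.41. Mrps18c, 1 of 3 mammalian genes related to bacterial S18, had a peak on chromosome 5 from 100798150 to 100798904 at percentile 98.4, with 4.20 and 8.14. Mrpl13 had one on chromosome 15 from 55557128 to 55557780 at percentile 96.5, with 5.94 and 3.90. All 5 genes have a partner on the other strand.

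Mrpl52 ranked next, on chromosome 14 from 54426483 to 54427086, with fold enrichments of 5.68 and 3.47 at percentile 94.9. It had no divergent protein-coding partner. Mrps5 had a peak on chromosome 2 from 127587223 to 127587769, with 3.01 and 6.05 at percentile 94.2, centered in an intron 274 bp downstream of the nearest start. Mrpl18, the protein that also has a role in import of 5S ribosomal RNA, had one on chromosome 17 from 12916369 to 12916784, with 5.10 and 3.53 at percentile 86.2.

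At the other end of the order stood Mrpl38, Mrps28, Mrpl57 and Mrps22, with percentiles of 16.3, 20.3, 21.1 and 22.4. The peak of Mrpl38 (chromosome 11, 116138390 to 116138774) had fold enrichments of 2.52 and 2.17. That of Mrps28 (chromosome 3, 8923320 to 8924472) had 1.80 and 3.08, and that of Mrpl57 (chromosome 14, 57826135 to 57826490) had 2.49 and 2.18. Mrps22 (ENSMUSG00000032459), a small-subunit protein mutated in a fatal infantile mitochondrial disease, had a peak on chromosome 9 from 98601555 to 98601837 with 1.86 and 3.34. The −log10 p-value of the Mrps22 peak was 1.53 and 3.84, so that it no longer counted when p had to be at or below 0.01 in both libraries, a rule that left 24 of the 27 genes. Among Mrpl11, Mrpl22, Mrpl45, Mrpl49, Mrps5, Mrps9 and Mrps22, the members of the family used as marker genes in this work, Mrpl49, Mrps5 and Mrps22 had an LSD1 promoter peak and the other 4 had none listed.

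**Figure D1:**
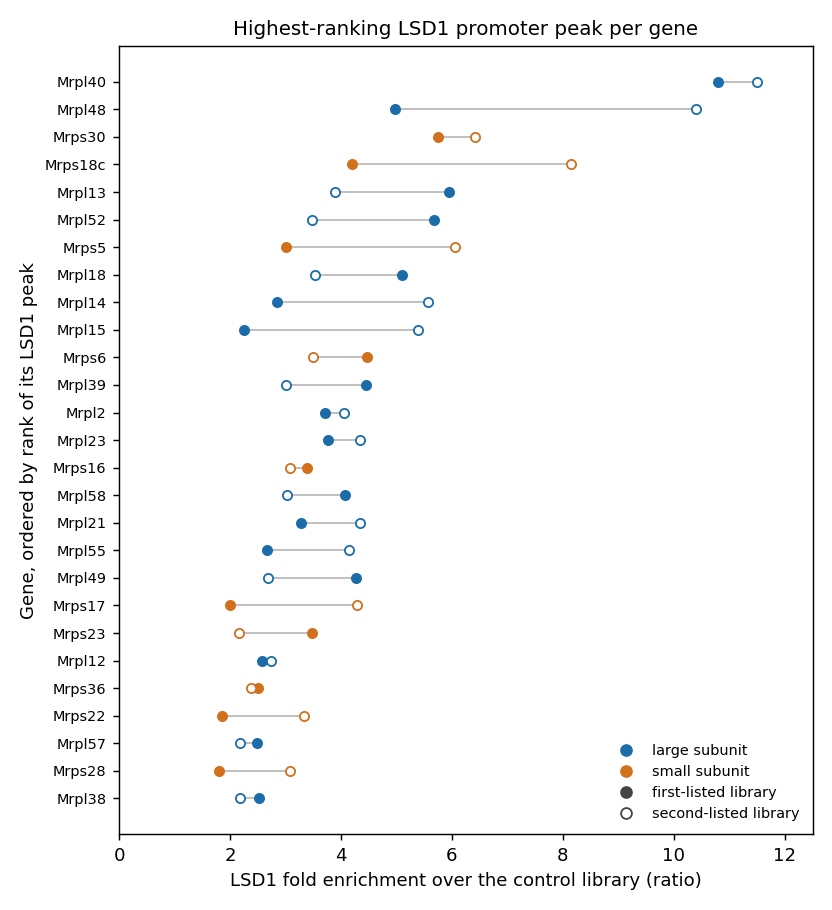
Fold enrichment (ratio of ChIP to control library) of the highest-ranking LSD1 promoter peak of each of 27 mitochondrial ribosomal protein genes, ordered from the highest rank at the top, with a filled point for the first-listed and an open point for the second-listed library and a line joining them. Mrpl40 stands apart at 10.8 and 11.5, while Mrpl38 at the bottom is at 2.52 and 2.17.

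The remaining LSD1-bound genes lay between these ranks. They were Mrpl14, Mrpl15, Mrps6, Mrpl39, Mrpl2, Mrpl23, Mrps16, Mrpl58, Mrpl21, Mrpl55, Mrpl49, Mrps17, Mrps23, Mrpl12 and Mrps36, from percentile 83.3 for Mrpl14 to 30.4 for Mrps36. Mrpl58, also called ICT1, is a peptidyl-tRNA hydrolase that became part of the ribosome, and Mrpl12 is known to bind the mitochondrial RNA polymerase.

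Most of the LSD1 peaks lay at or close to a start. Promoter peaks were chosen for lying within 1 kb of a start, so that some nearness was given beforehand. By the intervals of the first-listed library, 20 of the 30 peaks covered a transcription start, and 24 had their center within 300 bp of one. These 2 shares were not computed over all LSD1 promoter peaks. Centers were upstream of the nearest start in 16 and downstream in 14, with a median distance of 150 bp in either direction and a median width of 497 bp. By annotation, 14 centers lay outside the gene, 9 in an exon of any of its transcripts but outside coding sequence, 4 in a coding exon and 3 in an intron. LSD1 and H3K4me2 shared these places in 26 of the 27 genes, whose LSD1 promoter peak overlapped an H3K4me2 peak of the control list (92.9% of all genes with an LSD1 promoter peak). The exception was Mrps36. Of the 30 peaks, 19 lay wholly inside control H3K4me2 and 13 wholly inside LSD1-LKO H3K4me2, while over all 5113 LSD1 promoter peaks these shares were 49.9% and 38.7%. The part of the LSD1 peak that H3K4me2 covered was smaller in the LSD1-LKO list for 13 peaks, larger for 8 and equal for 9, and over all promoter peaks it was smaller for 42.6% and larger for 26.5%.

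Shared promoters were frequent in this family. A divergent partner, defined as a protein-coding gene on the opposite strand with a start within 1 kb, was annotated for 33 of the 78 genes (42.3%), against 11.4% of all protein-coding genes and 17.5% of those with H3K4me2 in either list. The share was 24 of 49 large-subunit genes (49.0%) and 9 of 29 small-subunit genes (31.0%). It was 17 of 84 (20.2%) for cytosolic ribosomal protein genes, 17 of 37 (45.9%) for complex I subunits and 11 of 27 (40.7%) for assembly factors. The partner's start lay between 16 bp (Mrpl18 and Tcp1) and 935 bp (Mrpl41 and Pnpla7) away, with a median of 83.0 bp against 127 bp over all genes with a divergent partner, and 17 of the 33 were within 100 bp. In 24 the starts pointed away from each other without overlap, and in 9 the transcripts overlapped at their 5′ ends.

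Several partners also make mitochondrial proteins. Mrpl46 and Mrps11, a large- and a small-subunit gene, were each other's partner at 30 bp on chromosome 7. Mrpl36 was paired with Ndufs6 at 29 bp and Mrpl47 with Ndufb5 at 20 bp, both encoding complex I subunits. Mrpl43 shared its promoter with Twnk, the helicase that unwinds mitochondrial DNA, at 116 bp. Mrps12 was paired with Sars2, the mitochondrial seryl-tRNA synthetase, at 182 bp, and Mrps27 with Ptcd2, a mitochondrial RNA-processing protein, at 81 bp. None of these had a listed LSD1 promoter peak.

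The partners of the LSD1-bound genes were Hira (Mrpl40), Rab6a (Mrpl48), B430218F22Rik (Mrps30), Helq (Mrps18c), Mtbp (Mrpl13), Zfp661 (Mrps5), Tcp1 (Mrpl18), Tmem63b (Mrpl14), Klc4 (Mrpl2), Ighmbp2 (Mrpl21), Fau (Mrpl49) and Ska3 (Mrpl57). Tcp1 is a subunit of the cytosolic chaperonin, Fau encodes the cytosolic ribosomal protein S30 as a ubiquitin-like fusion, and Helq and Ighmbp2 are helicases. An LSD1 promoter peak was listed for 12 of the 33 genes with a partner (36.4%) and 15 of the 45 without (33.3%). Over all genes these shares were 42.0% of those with a partner and 21.3% of those without, and over genes with H3K4me2 in either list 44.0% and 36.2%. Of the 12, 9 were large-subunit and 3 small-subunit genes.

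Which of the 2 genes an LSD1 peak belongs to cannot be told apart at a shared promoter. The highest-ranking peak of Mrpl48 lay at another start, and those of the other 11 genes lay at the shared promoter. By the intervals of the first-listed library, 6 of these 11 peaks covered both starts, 2 only that of the mitochondrial ribosomal gene and 3 neither. The 3 were those of Mrpl14, Mrpl18 and Mrps5, and in the second-listed library each covered both starts. The center, again of the first-listed interval, was nearer to the partner's start in 6 and to the ribosomal gene's in 5. For Mrpl21 it was 59 bp from the start of Ighmbp2 and 102 bp from that of Mrpl21. For Mrpl2, in contrast, it was 105 bp from its own start and 312 bp from that of Klc4.

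**Figure D2:**
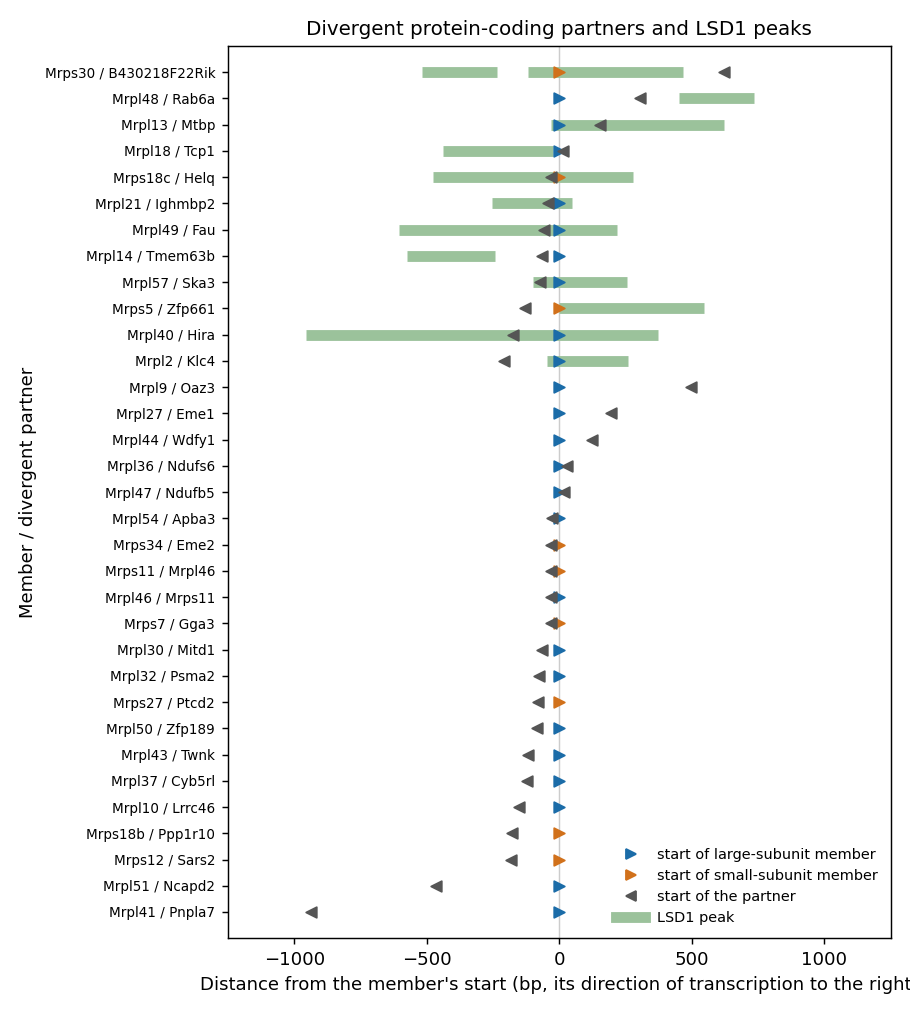
The 33 mitochondrial ribosomal protein genes with a divergent protein-coding partner, aligned at the gene's start (coloured arrowhead, 24 large- and 9 small-subunit genes), with the partner's start (grey arrowhead) and LSD1 peaks (green bars) on a horizontal axis in bp. The upper 12 rows have an LSD1 peak, and in most of the 33 rows the partner's start is close to the gene's own, at a median of 83.0 bp.

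H3K4me2 was present at nearly all of these promoters. A promoter peak was listed in both control and LSD1-LKO for 74 of the 78 genes (94.9%), against 55.7% of all protein-coding genes and 89.9% of those with a peak in either list. This was so for 47 of 49 large-subunit and 27 of 29 small-subunit genes. It was 79 of 84 for cytosolic ribosomal protein genes and 36 of 37 for complex I subunits. The highest-ranking H3K4me2 promoter peak had a median percentile of 82.1 in the control list and 82.4 in the LSD1-LKO list, each ranked within its own list, against 81.7 and 82.2 over all genes. Median fold enrichments of these peaks were 5.09 and 7.2 in the 2 control libraries and 4.43 and 6.47 in the 2 LSD1-LKO libraries, against 4.87 and 6.61, and 4.41 and 6.35, over all genes.

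Mrpl14 and Mrps18a had H3K4me2 promoter peaks in the control list only, as did 3.09% of all genes. At Mrpl14 (ENSMUSG00000023939, plus strand, chromosome 17) the control peaks ran from 45684534 to 45686189 and from 45686365 to 45687490, with fold enrichments of 4.85 and 5.81 for the first and 4.07 and 6.92 for the second. The nearest LSD1-LKO peak lay 6.66 kb from a start of Mrpl14. At Mrps18a (ENSMUSG00000023967, plus strand, chromosome 17) the control peaks, from 46110357 to 46110909 and from 46111225 to 46111802, had fold enrichments of 4.07 and 7.74, and 2.06 and 7.74, and the nearest LSD1-LKO peak was 13.5 kb away. Mrpl14 had an LSD1 promoter peak (2.85 and 5.57), and Mrps18a had none. Both calls rest on coding transcripts: with the starts of transcripts of every biotype, both genes had an LSD1-LKO promoter peak. That peak lay at a start of a transcript of another biotype, and none was listed within 1 kb of a coding start.

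Mrps36 (ENSMUSG00000061474, minus strand) was the reverse case, with H3K4me2 promoter peaks in the LSD1-LKO list only, as were 3.18% of all genes. Its peaks (chromosome 13, 100743722 to 100744090 and 100744202 to 100745066) had fold enrichments of 3.34 and 8.0, and 3.41 and 8.0, at percentiles 88.7 and 90.7. The nearest control peak was 13.8 kb away. Mrps36 also had an LSD1 promoter peak in wild type liver, at 2.50 and 2.38. Mrpl32, which shares a promoter with the proteasome subunit gene Psma2, had an H3K4me2 promoter peak in neither list, and the nearest ones lay 17.2 kb (control) and 16.5 kb (LSD1-LKO) away. An absent entry means that no peak was shared by both libraries of the group, and the fold enrichment of an unlisted region is not known.

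Around 1 start per gene, by the intervals of the first-listed libraries, H3K4me2 cover reached across the start and was highest just inside these genes. In the control list, the 50-bp bin centered 475 bp downstream of the start was covered in 96.2% of the 78 genes, against 75.8% of the genes with H3K4me2 in either list. At 1425 bp downstream the order was the other way round, with 12.6% against 30.8%. Upstream at −325 bp the cover was 69.2% against 62.1%. The LSD1-LKO list had the same shape, with 88.7% against 71.5% at 475 bp and 13.4% against 26.3% at 1425 bp. LSD1 peaks covered the start itself in 25.6% of the 78 genes and 23.3% of the genes with H3K4me2, and the H3K4me2 cover of both lists dipped there.

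**Figure D3:**
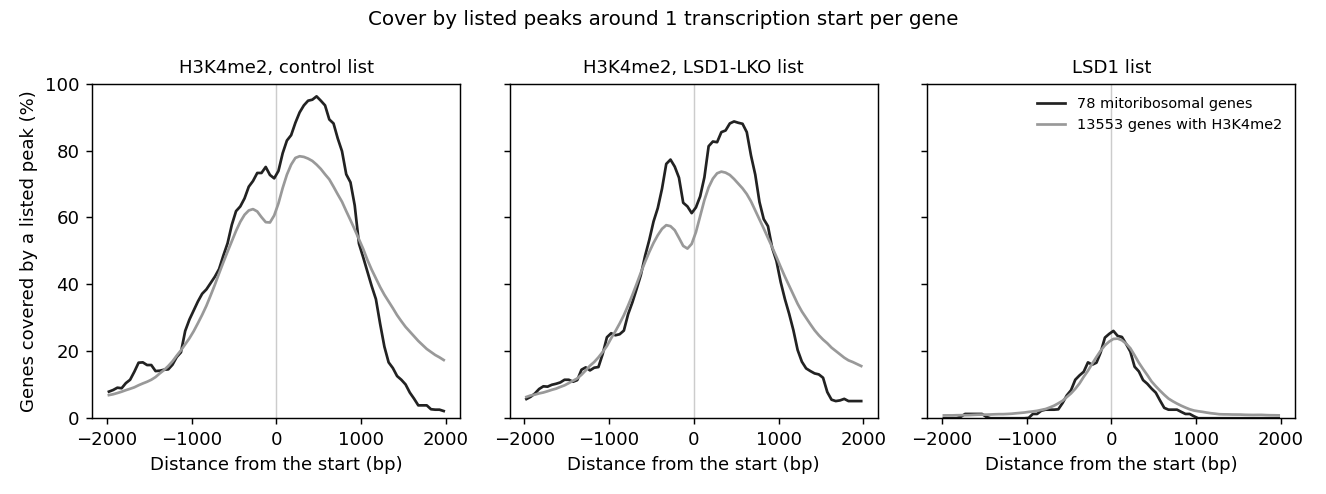
Share of genes (%, vertical axis) covered by a listed peak in 50-bp bins by distance from 1 transcription start per gene (bp, direction of transcription to the right), for the 78 mitochondrial ribosomal protein genes (black) and 13553 genes with H3K4me2 in either list (grey). H3K4me2 of the mitochondrial ribosomal genes reaches 96.2% in control and 88.7% in LSD1-LKO at 475 bp and lies under the grey line beyond 1 kb downstream, while the LSD1 curves of both sets are centered on the start.

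Fewer starts lay under LSD1-LKO than under control H3K4me2. In the first-listed libraries, H3K4me2 covered the start of 57 of the 78 genes in control (73.1%) and of 49 in LSD1-LKO (62.8%), with 17 covered in control only (21.8%) and 9 in LSD1-LKO only (11.5%). Over genes with H3K4me2 in either list these shares were 20.5% and 12.1%, close to those of the family. In the second-listed libraries the counts were 69 (88.5%) and 65 (83.3%). Of the genes with H3K4me2 in either list, the start was covered in 62.2% and 53.7% in the first-listed, and 77.4% and 77.2% in the second-listed libraries. In the first-listed libraries, 42 of the 78 promoters held 2 or more LSD1-LKO peaks (53.8%) and 22 held 2 or more control peaks (28.2%), against 47.6% and 40.1% of genes with H3K4me2 in either list. The start was covered in both control libraries and neither LSD1-LKO library in Mrpl11, Mrpl42, Mrpl44 and Mrps23 (5.13%, against 4.22% of genes with H3K4me2), and the reverse held for Mrpl38 and Mrps36 (2.56%, against 3.22%). Mrps36 had no listed control peak at its promoter, so that neither control library could cover its start.

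The length of promoter under H3K4me2 was compared next, since the lists hold intervals rather than read counts. In the first-listed libraries the median covered length was 1540 bp for control liver and 1296 bp for LSD1-LKO liver, of a median promoter of 2003 bp. Covered length was lower in LSD1-LKO for 50 genes, higher for 26 and equal for 2. The median difference was −87.5 bp for the mitochondrial ribosomal genes and −111 bp for all genes with H3K4me2 in either list, of which 60.1% were lower and 39.4% higher. In the second-listed libraries the medians were 1691 and 1722 bp, 38 genes were lower and 34 higher, and the median difference was 0 bp. Over all genes with H3K4me2, 42.1% were lower and 51.3% higher there, with a median difference of 12 bp. The peaks of the second-listed libraries are wider than those of the first-listed ones, and the outcome differed between the 2 sets of intervals. The peak names of the first-listed H3K4me2 libraries carry the name of Picard, a toolkit that handles duplicate reads, and those of the second-listed ones do not, and the part of this in the result was not tested.

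By subunit, the covered length in the first-listed libraries was lower in LSD1-LKO for 35 of 49 large-subunit genes and 15 of 29 small-subunit genes, with median differences of −138 bp and −17.0 bp. In the second-listed libraries these were 23 of 49 and 15 of 29, with medians of 0 and −11.0 bp, so that the gap between the subunits was not seen there. Genes with an LSD1 promoter peak had a median difference of −138 bp (20 of 27 lower) and those without one −34.0 bp (30 of 51 lower). In the second-listed libraries these medians were −115 bp (17 of 27 lower) and 0 bp (21 of 51 lower). Over all 5163 genes with an LSD1 promoter peak, the first-listed libraries gave a median of −106 bp, with 59.8% lower. The second-listed libraries gave 0 bp there, with 2088 genes lower. For all genes without an LSD1 promoter peak these values were not computed.

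In 14 of the 78 genes both LSD1-LKO libraries were below both control libraries (17.9%, against 17.3% of genes with H3K4me2 in either list). They were Mrpl2, Mrpl3, Mrpl11, Mrpl14, Mrpl18, Mrpl42, Mrpl50, Mrpl52, Mrps6, Mrps7, Mrps18a, Mrps21, Mrps30 and Mrps31. In 6 genes, Mrpl4, Mrpl16, Mrps12, Mrps18c, Mrps27 and Mrps36, both were above (7.69%, against 14.6%). A gene without a listed promoter peak in a group has no covered length in either of its libraries. The place of Mrpl14, Mrps18a and Mrps36 in these counts was therefore fixed beforehand.

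Among single genes, the largest differences toward a shorter covered promoter in LSD1-LKO, in the first-listed libraries, were at Mrpl14 (1826 bp in control, 0 in LSD1-LKO), Mrps18a (1131 and 0), Mrpl24 (1860 and 878), Mrps30 (1907 and 1015), Mrps31 (1757 and 898) and Mrpl57 (1678 and 926). The second-listed libraries gave 1669 and 1508 bp for Mrps30, and 1811 and 1669 for Mrps31. They gave 1898 and 0 bp for Mrpl14 and 1442 and 0 for Mrps18a. These 0 values were fixed beforehand, because a promoter without a listed peak has no covered length in either library of the group. At Mrpl24 the second-listed libraries gave 2416 and 2423 bp and at Mrpl57 1572 and 1746 bp, so that the direction did not hold there. Of these 6, Mrpl14, Mrpl57 and Mrps30 had an LSD1 promoter peak.

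Toward a longer covered promoter the largest differences in the first-listed libraries were at Mrps36 (0 bp in control, 1234 in LSD1-LKO), Mrps26 (744 and 1343), Mrps18b (692 and 1249), Mrps28 (540 and 1030), Mrps18c (1687 and 2121) and Mrps33 (1061 and 1418), all of them small-subunit genes by symbol. In the second-listed libraries Mrps26 had 1492 and 1738 bp, Mrps28 1611 and 1924 and Mrps18c 1849 and 2121. Mrps36 had 0 and 1485 bp there, where the 0 in control was likewise fixed by the lack of a listed peak. Mrps18b (1827 and 1727 bp) and Mrps33 (1459 and 1372 bp) went the other way. The larger rises in the second-listed libraries included the large-subunit genes Mrpl38 (999 and 1934 bp) and Mrpl54 (1107 and 1902 bp), beside Mrps24 (971 and 1807 bp). That the largest rises were all at small-subunit genes thus held for the first-listed intervals only.

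Of the marker genes used in this work, Mrpl11 had 1173 bp of covered promoter in control and 699 in LSD1-LKO in the first-listed, and 1371 and 767 in the second-listed libraries. Mrpl22 had 962 and 424, then 957 and 1402 bp. Mrps9 had 1509 and 1025, then 1622 and 1715 bp. Mrpl45 had 1272 and 1300, then 1416 and 1520 bp. Mrpl49 had 1568 and 1483, then 2055 and 1660 bp. Mrps5 had 771 and 801, then 1341 and 1824 bp. Mrps22 had 1166 and 1205, then 1639 and 1410 bp. The last 4 genes thus differed by less than 100 bp between control and LSD1-LKO in the first-listed libraries and by more than that in the second-listed ones, where Mrpl49 and Mrps22 were lower and Mrpl45 and Mrps5 higher in LSD1-LKO. Among these 7, both LSD1-LKO libraries were below both control libraries at Mrpl11 alone.

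**Figure D4:**
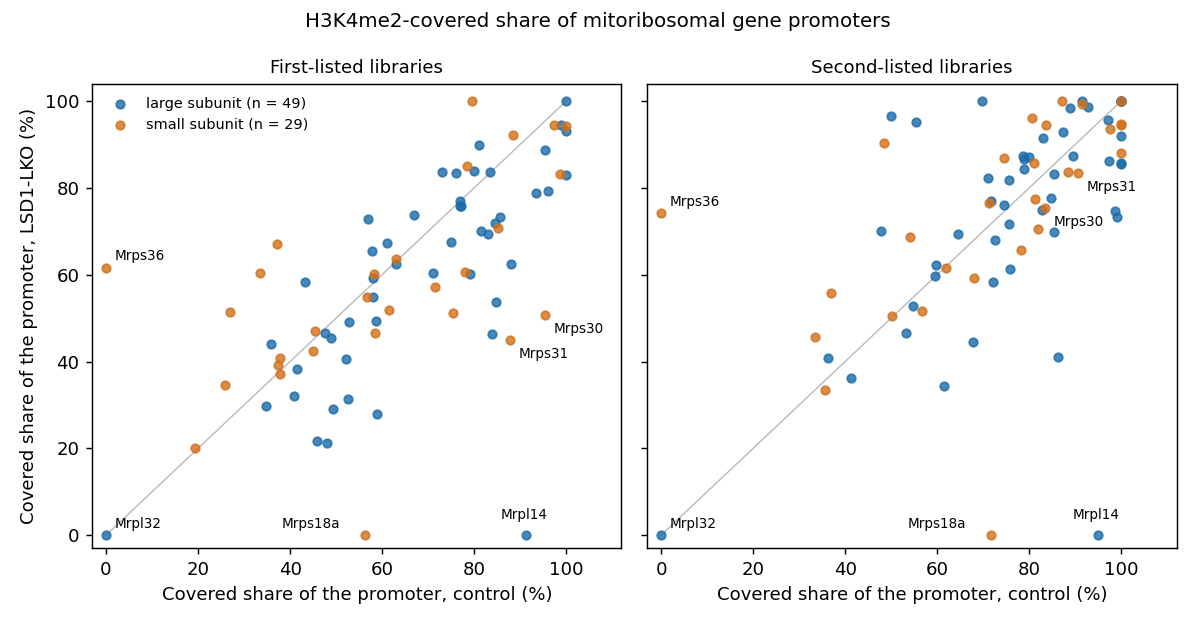
Share of the promoter (%) covered by H3K4me2 in control (horizontal) and LSD1-LKO (vertical) for 49 large-subunit (blue) and 29 small-subunit genes (orange), in the first-listed libraries (left) and second-listed libraries (right), with a line of equal shares. Mrpl14 and Mrps18a lie on the horizontal axis and Mrps36 on the vertical axis in both panels. A gene without a listed peak in a group has no covered length in either of its libraries. Mrps30 and Mrps31 lie far below the line only on the left.

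Of the members in the published set of mitochondrial genes with lower RNA in LSD1-LKO liver, 11 of 45 (24.4%) had an LSD1 promoter peak, and of the other members 16 of 33 (48.5%). Their median difference in H3K4me2-covered length was −113 bp and −34.0 bp in the first-listed, and −41.0 bp and 7.0 bp in the second-listed libraries. Members were matched to the published set by symbol, so a gene listed there under another symbol counts among the others. The same split over all genes was not computed. Over all genes with altered RNA, in either direction, the paper reports that LSD1 binding was enriched. RNA was not analysed here, and these differences were not tested.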

How the data were processed

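LSD1 and H3K4me2 ChIP-seq of mouse liver was deposited as 3 peak lists, each from 2 ChIP libraries. Per the methods, the authors mapped reads to mm10 with Bowtie2, called narrow peaks in each library with MACS2 and kept reproducible peaks with bedtools (2.25.0 in the submitters' processing notes). Control libraries are labelled input, while the methods name IgG. The fold enrichment is a ratio that the authors' MACS2 run gave for ChIP over control library, and the −log10 p-values are those the authors deposited. They reach down to 1.30, so some listed peaks had p above 0.01. Scores of 12 further columns (rounded scores and summit offsets) were not used.

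Peak positions came from the intervals of the first-listed library with no cutoff on score, and promoters were 1 kb on either side of 54361 starts of protein-coding transcripts (GENCODE vM21), computed with Python 3.11.15, numpy 2.4.6 and pandas 2.3.3. Covered length is the number of promoter bases under listed peaks. Which column belongs to which replicate number is not given. The interval functions were checked on simulated data. The members, gene lists and motifs were chosen with earlier results of these data known. Named genes were all members with an LSD1 promoter peak (values for the 8 highest and 4 lowest ranks), those with H3K4me2 in 1 list or neither, the 6 largest differences in covered length each way, 7 marker genes, and LSD1-bound members with a partner. Genes named for a motif match, for a mitochondrial partner without LSD1 or for a start covered in 1 group only were chosen after their values were seen. The same holds for genes named for covered lengths that did not overlap between the groups or for a rise in the second-listed libraries. No test was made. Alternatives were promoter width, starts, p-value, library intervals, overlap and partner distance.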

Additional observations from a re-analysis of the deposited data

How the results depend on the processing

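Of 106 values recomputed under the alternatives, 96 stayed within 1.5 times the main count, or for the median change in covered share within the SD between the libraries, and 10 moved. This rule is wide. Covered length was lower in LSD1-LKO for 50 genes and higher for 26 in the main analysis. With the second-listed intervals these counts were 38 and 34, and both stayed within the rule. With p at or below 1e-05 in both libraries, LSD1 promoter peaks were left at 7 genes (5 large-subunit, 2 small-subunit, with 6 overlapping a control H3K4me2 peak), against 5.49% of all genes. H3K4me2 was in control alone for 16 genes, in LSD1-LKO alone for 8 and in no list for 4, against 8.22%, 5.38% and 47.2% of all genes. Only 11536 of the 21853 genes had H3K4me2 in either list at this cutoff, so that the first 2 of these shares are lower than they would be among marked genes. The median change in covered share was −6.31 percentage points there, −3.37 in the main analysis and 0 with the intervals of the second-listed library. With starts of transcripts of every biotype, 0 genes had H3K4me2 in the control list only. No paired analysis was possible because the lists give no replicate number and no value was tested. The unknown depth limits every absent peak to not listed.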
